A study of Mus musculus with 18 samples.

Results

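The 192 genes described here are the protein-coding genes of mouse whose symbol is Zfp followed by a number, with Zfp42 and Zfp521 left out. They were taken by symbol from a table of 10965 genes measured by RNA-seq in mouse embryonic stem cells (ESCs). The authors had cut that table by expression level and variability, and members were chosen with earlier results of these data known. Control cells (Ctrl) carry Zeb2 alleles flanked by loxP sites, and Zeb2 KO cells (KO) have both alleles inactivated. The labels give the genotypes as Zeb2 fl/fl and Zeb2 -/- and the strain as CD1. Ctrl and KO cells were each sampled as ground-state ESCs, kept in 2i + LIF (d0), and again at d4 and d6. Those at d4 had spent 4 days as embryoid bodies in medium with 15% serum (multipotent progenitors in Ctrl). Those at d6 were taken 2 days after a change to N2B27 with 500 nM retinoic acid (early neural progenitors in Ctrl). The inhibitors of 2i were PD0325901 at 0.4 µM and CHIR99021 at 1 µM by the labels, although other concentrations stand in the methods of the study. There were 3 libraries for each genotype and day, described as independent experiments, and 18 in all. The study made KO lines by Cre in floxed CD1 lines and, in a second derivation, from crossed mice of a mixed background. The labelled genotypes and strain are those of the first derivation. Which of its lines were sequenced is not given, so that a difference between genotypes and one between lines cannot be told apart.

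Zfp symbols collect proteins that share a zinc-binding fold and little else. Most carry arrays of C2H2 fingers, which read DNA, and the largest family among them joins such an array to a KRAB box, which binds the corepressor Trim28 and brings histone methylation and DNA methylation to retroelements and imprinted genes. A smaller family, Zfp36 and its relatives, carries CCCH fingers that bind AU-rich mRNA and hasten its decay. Zeb2 is itself a zinc finger factor of DNA, with its fingers in a pair of clusters that bind CACCT and CACCTG.

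Among the 192 genes, 86 code for a protein with a KRAB box, 93 for a protein with C2H2 fingers and no KRAB box, and 12 for a protein with no match to the C2H2 pattern. For the remaining gene, Zfp125, no translated protein was taken from the annotation. KRAB proteins held a median of 12 fingers and the other C2H2 proteins a median of 6. The largest array, of 30 fingers, was in Zfp729b. The group without a C2H2 match held Zfp36, Zfp36l1, Zfp36l2 and Zfp36l3 (the 4 genes that matched the CCCH pattern), Zfp703, Zfp503, Zfp365, Zfp185, Zfp750, Zfp326, Zfp330 and Zfp839. Expression is given as TPM, a transcript level scaled for gene length and for the total of the library. The mean TPM of the Zfp genes over all libraries ranged from 2.34 to 226, with a median of 23.1, against 30.5 for all genes of the table. KRAB genes had a median mean TPM of 15.9 and C2H2 genes without KRAB one of 31.8. The highest mean TPM were those of Zfp598, a ubiquitin ligase that marks collided ribosomes, Zfp207, a protein of the spindle and of splicing, and Zfp219, a C2H2 factor.

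The libraries held between 9622622 and 15617675 reads on the genes of the table, and the Zfp genes a median of 455 reads per gene and library, with 21 genes under 100. Zeb2 itself was at 7.81, 7.53 and 7.65 TPM in the Ctrl libraries at d6 and at 0.717, 0.594 and 0.733 TPM in KO, and at d0 at 13 to 19 reads per library in Ctrl and 1 to 3 in KO. The pluripotency markers Pou5f1, Nanog, Esrrb, Klf4 and Tfcp2l1 were present in all libraries at d0, with a summed level of 3679 to 3724 TPM in Ctrl and 3679 to 3780 TPM in KO. At d6 the neural markers Pax6, Sox1, Nes and Irx3 were all lower in KO (4 of 4), with a summed level of 263.5 to 301.5 TPM in Ctrl and 59.7 to 72.0 TPM in KO, while 3 of 5 pluripotency markers were higher and 1 lower, with sums of 251.8 to 288.7 TPM in Ctrl and 905.6 to 1120 TPM in KO. Endoderm (4 of 4 in the table), mesoderm (2 of 2) and trophectoderm (1 of 1) markers were lower in KO at d6 too, with sums of 70.9 to 112.7 TPM against 13.1 to 19.9 TPM, 135.1 to 188 TPM against 3.84 to 6.19 TPM, and 5.62 to 8.20 TPM against 2.95 to 3.81 TPM. The deposited TPM fit read counts to which 1 had been added, so that no gene could be at 0 and a low value can stand for no reads. These cells are bulk samples, in which fewer cells of a type and less RNA per cell cannot be told apart. The KO libraries at d6 differed most among themselves (chi-square per degree of freedom of 24.1 between replicates 1 and 3 over the counts of all genes, against 4.38 to 13.9 for the other pairs of a group).

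In Ctrl, most Zfp genes rose on the way out of the ground state. Between d0 and d4, 121 of the 192 (63.0%) were higher and 19 (9.90%) lower at a limma adjusted p below 0.01, against 45.1% and 22.3% of all 10965 genes, and the median log2 fold change was 0.63, against 0.26 for all genes. Between d4 and d6, 23 were higher (against 22.6% of all genes) and 62 lower (32.3%, against 21.5%). In KO, 83 genes were higher at d4 than at d0 (43.2%, against 35.8%) and 35 lower (18.2%, against 20.9%), with a median of 0.29, against 0.15. From d4 to d6 in KO, 14 were higher (7.29%, against 21.5%) and 66 lower (34.4%, against 19.9%). Of the 121 genes that rose by d4 in Ctrl, 75 also rose in KO, which is 62.0% of the Ctrl genes and 90.4% of the KO genes. The matching share over all genes was not computed. The split of calls depended on the scaling: after median-ratio rescaling the Ctrl change from d0 to d4 comprised 93 higher and 40 lower Zfp genes, and after quantile normalization 80 and 37. The shares of all genes under these scalings were not computed.

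The summed level followed the same course. Zfp genes took 0.667 to 0.701% of the TPM of the table in the Ctrl libraries at d0, 0.881 to 0.915% at d4 and 0.838 to 0.855% at d6. In KO they took 0.693 to 0.723% at d0, 0.738 to 0.774% at d4 and 0.613 to 0.711% at d6. The genotypes overlapped at d0 and lay apart at d4 and at d6, with every KO library below every Ctrl library.

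**Figure D1:**
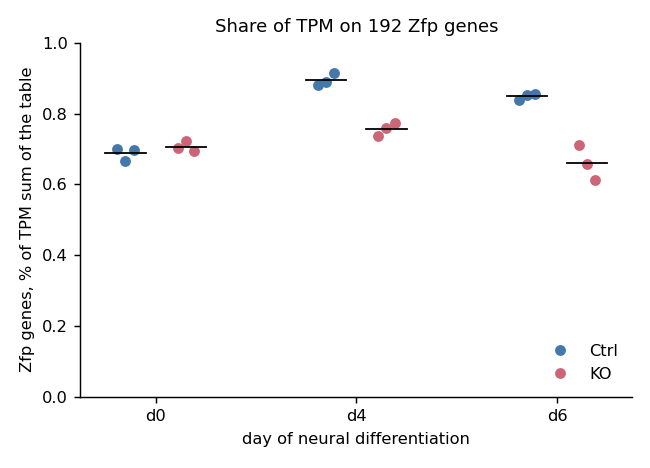
Percent of the TPM sum of the table that fell on the 192 Zfp genes (y axis) by day (x axis), 1 point per library, blue for Ctrl and red for KO, with a black bar at the mean of 3 libraries. The Ctrl libraries at d4 and d6 sit between 0.838 and 0.915%, above all KO libraries of those days, which sit between 0.613 and 0.774%.

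The genes that changed most between days were these. Zfp703, Zfp423 and Zfp608 rose most from d0 to d4 in Ctrl, by log2 fold changes of 5.95, 4.72 and 4.57. In KO the largest rises were those of Zfp608 (4.35), Zfp423 (3.20) and Zfp629 (2.27), a long C2H2 array. Zfp296, a partner of the NuRD complex in ESCs, fell in both genotypes, from 180.3 ± 28.4 to 54.8 ± 2.31 TPM in Ctrl and from 155 ± 5.70 to 57.6 ± 11.3 TPM in KO (SD, n = 3), and so did Zfp428, from 95.2 to 33.7 TPM and from 71.9 to 26.5 TPM. From d4 to d6, Zfp503, Zfp36l3 and Zfp811 rose most in Ctrl (2.97, 1.56 and 1.48), and Zfp36, Zfp36l3 and Zfp36l2 in KO (2.16, 1.62 and 1.44), all 3 of them CCCH genes. The KRAB genes Zfp534, Zfp459 and Zfp936 fell most in Ctrl over these days (-1.76, -1.45 and -1.41). In KO the largest falls were those of the KRAB genes Zfp819 (-1.69) and Zfp59 (-1.28) and of Zfp750 (-1.13), a factor of epidermal differentiation.

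Against Ctrl of the same day, KO had few differences at d0 and many at d4 and d6, most of them lower. At d0, 20 Zfp genes were higher in KO (10.4%, against 10.6% of all genes) and 18 lower (9.38%, against 16.4%). At d4, 11 were higher (5.73%, against 12.7%) and 80 lower (41.7%, against 32.7%). At d6, 25 were higher (against 17.9%) and 99 lower (51.6%, against 34.3%). The libraries of the genotypes did not overlap for 90 Zfp genes at d0 (46.9%, against 51.5% of all genes), 132 at d4 (68.8%, against 65.7%) and 142 at d6 (74.0%, against 63.7%). A different course in KO and Ctrl, as an F test of the changes since d0, was called for 98 Zfp genes (51.0%, against 48.7%). Of the 80 genes lower at d4, 71 were also lower at d6, which is 88.8% of the d4 genes and 71.7% of the d6 genes, and 10 of the 11 genes higher at d4 were higher at d6. Without KO d6 replicate 1, 23 were higher and 103 lower at d6, and without replicate 3, 25 and 90. None of the 91 genes called at d4 was called in the opposite direction at d6. How often calls at d4 recurred at d6 among all genes was not computed, so this persistence cannot be taken as particular to the Zfp genes.

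The sizes were modest for most members. The Zfp genes had a median log2 fold change of -0.01 in d0 cells, which moved to -0.30 by d4 and to -0.45 by d6, against -0.07, -0.16 and -0.14 over all genes. Median-ratio rescaling moved the median of all genes to 0.00 at d4 and 0.01 at d6. Relative to all genes, the median of the Zfp genes was then lower by 0.14 at d4 and by 0.31 at d6, as before rescaling. Such rescaling applies a single factor per library and so moves both medians nearly alike. After quantile normalization the median of the Zfp genes differed from that of all genes by -0.10 at d4 and -0.24 at d6. With median-ratio rescaling, 17 Zfp genes were higher and 47 lower at d4, and 32 higher and 79 lower at d6. With quantile normalization, 18 were higher and 43 lower at d4, and 40 higher and 76 lower at d6. The shares of all genes called under these scalings were not computed, so these counts cannot be set against those of the main fit.

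By protein class, the calls are set beside those over all genes (12.7% higher and 32.7% lower at d4, 17.9% higher and 34.3% lower at d6). Of the 86 KRAB genes, 6 were higher (6.98%) and 29 lower (33.7%) at d4, and 17 were higher (19.8%) and 37 lower (43.0%) at d6, with medians of -0.26 and -0.35. The KRAB shares of lower genes at d4 and of higher genes at d6 were thus near those of all genes. Of the 93 C2H2 genes without KRAB, 3 were higher (3.23%) and 46 lower (49.5%) at d4, and 4 higher (4.30%) and 57 lower (61.3%) at d6, with medians of -0.33 and -0.49. The 12 genes without a C2H2 match held 4 genes higher and 5 lower at d6. The difference between the classes was not tested. By length of the array, 26 of 48 genes with 1 to 5 fingers (54.2%), 31 of 53 with 6 to 10 (58.5%) and 37 of 77 with 11 or more (48.1%) were lower at d6, shares near the 51.6% of all Zfp genes and above the 34.3% of all genes.

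**Figure D2:**
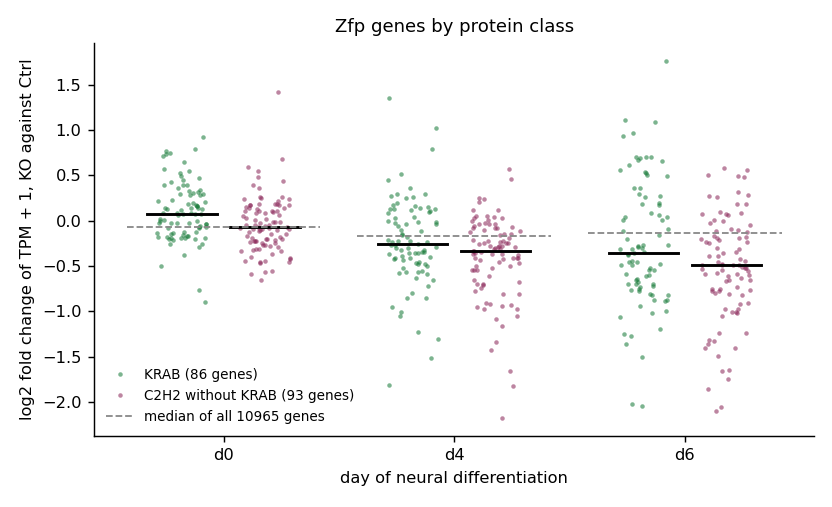
Log2 fold change of TPM + 1 in KO against Ctrl (y axis) at d0, d4 and d6 (x axis), 1 point per gene, green for the 86 KRAB genes and purple for the 93 C2H2 genes without KRAB, with black bars at the medians and a dashed line at the median of all 10965 genes. The medians of both classes lie below the line at d4 and d6, at values of -0.35 and -0.49 at d6, and the points above 0.6 at d6 belong to KRAB genes.

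The genes higher at d0 were gathered on chromosomes 8 and 12. Of the 20 Zfp genes higher in KO, 7 lie on chromosome 8 and 5 on chromosome 12, and none of the 25 Zfp genes of these chromosomes was lower. The 649 other genes of chromosome 8 and the 434 of chromosome 12 were also shifted, with 48.7% and 47.2% higher and medians of 0.34 and 0.35. On chromosome 6, 1 of 10 Zfp genes was higher, against 17.3% of 550 other genes. The 157 Zfp genes outside chromosomes 6, 8 and 12 comprised 7 higher and 18 lower at d0, 9 and 60 at d4, and 23 and 77 at d6. The shares of all genes outside these chromosomes were not computed. At d4 and d6 the other genes of chromosomes 8 and 12 had medians between -0.15 and -0.20. The part of these chromosomes in the d0 differences was not tested.

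**Figure D3:**
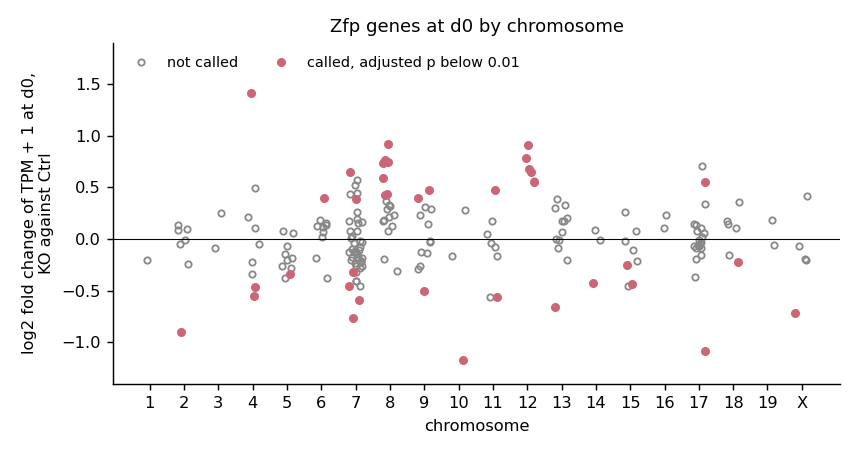
Log2 fold change of TPM + 1 in KO against Ctrl at d0 (y axis) by chromosome (x axis), 1 point per Zfp gene, filled red where called at an adjusted p below 0.01 and open grey where not. Called genes on chromosomes 8 and 12 all lie above 0 (7 and 5 genes), and called genes on the other chromosomes lie on both sides.

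The KRAB genes Zfp869 and Zfp868, 2 of 5 neighbours on chromosome 8, were the clearest of these. Values in parentheses after TPM are log2 fold changes of KO against Ctrl with their SE (n = 3 libraries per group) and the limma adjusted p. Zfp869 was at 33.4, 39.2 and 36.2 TPM in Ctrl and 66.5, 65.1 and 77.4 TPM in KO at d0, which is 0.92 ± 0.09 (adjusted p = 7.53e-07) on the log2 scale, and at 87.8 and 90.5 TPM at d4 (0.04 ± 0.09, adjusted p = 0.697). Zfp868 was at 21.1, 22.3 and 18.9 TPM and at 32.6, 39.0 and 36.8 TPM (0.77 ± 0.09, adjusted p = 1.16e-05), and lower in KO by d6 (-0.59 ± 0.09, adjusted p = 4.49e-05). In both genes the d0 libraries of the genotypes lay apart. Zfp1 on chromosome 8 (0.75 ± 0.15, adjusted p = 8.47e-04) and the KRAB gene Zfp386 on chromosome 12 (0.79 ± 0.11, adjusted p = 2.99e-05) were likewise higher at d0, and Zfp386 was lower at d4 (-0.58) and d6 (-0.72). The largest d0 rise was that of Zfp352, a gene of the early embryo on chromosome 4, from 0.608, 0.723 and 0.644 TPM in Ctrl to 2.95, 2.60 and 5.10 TPM in KO (1.42 ± 0.38, adjusted p = 0.00779). The call for Zfp352 did not hold under 12 of 26 alternatives, and 11 of those 12 omit a single library. At d4 Zfp352 was the other way round, at 8.75, 6.52 and 8.63 TPM in Ctrl and 2.14, 1.58 and 1.78 TPM in KO (-1.66 ± 0.38, adjusted p = 0.00161). Its d0 values rest on 7 to 9 reads per Ctrl library. Without Ctrl libraries it would not have passed the authors' filter of at least 5 TPM in 3 samples, so its d4 difference is partly set by that filter.

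Among the genes lower in KO at d0, Zfp365, a coiled-coil protein linked to genome stability, had the largest difference and then turned. It was at 21.8, 20.6 and 25.3 TPM in Ctrl and 8.15, 11.04 and 9.37 TPM in KO at d0 (-1.17 ± 0.13, adjusted p = 5.50e-06). At d4 it was at 13.1, 14.7 and 15.9 TPM and 35.2, 38.2 and 31.1 TPM (1.20 ± 0.13, adjusted p = 1.73e-06), and at d6 at 8.61, 10.6 and 12.5 TPM and 20.8, 20.8 and 22.0 TPM (0.95 ± 0.13, adjusted p = 1.12e-05). On each day the 3 KO libraries lay outside the range of the Ctrl libraries, below it at d0 and above it later. Zfp365 was the only one of the 18 genes lower at d0 that was higher at d4. The KRAB gene Zfp334 was lower on all 3 days, with 5.27 ± 0.284 against 2.36 ± 0.138 TPM at d0 (-0.90 ± 0.10, adjusted p = 4.35e-06) and 39.2 ± 2.02 against 18.2 ± 0.218 TPM at d6 (-1.06 ± 0.10, adjusted p = 1.44e-07), although the d4 call was lost after either rescaling and when only the groups compared were fitted. The KRAB gene Zfp566 (-0.76), Zfp185, an actin-binding LIM protein (-0.72), and Zfp346, a protein of double-stranded RNA (-0.65), were lower at d0 as well, and the first 2 of these were not called at d6 (0.01 ± 0.13, adjusted p = 0.968 for Zfp566 and 0.00 ± 0.11, adjusted p = 0.995 for Zfp185).

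Of 10 genes listed for neural and other development, 7 were in the table, and 6 of these were lower in KO at d6 (85.7%, against 34.3% of all genes and 51.6% of the Zfp genes) and none higher, with a median of -1.01. Zfp703 (chromosome 8, 26977325 to 26981461, GRCm38), a corepressor-binding protein of the NocA family, stayed near its d0 level in KO. It was at 1.27, 1.33 and 1.18 TPM in Ctrl at d0, at 109, 152 and 162 TPM at d4 and at 156, 152 and 131 TPM at d6. In KO it was at 2.88, 1.31 and 1.53, at 1.36, 0.776 and 1.30 and at 1.02, 2.17 and 1.79 TPM. The Ctrl libraries rose by d4 and stayed there, and all 9 KO libraries stayed below 3 TPM. The gene thus passed the authors' filter of at least 5 TPM in 3 samples only through Ctrl. That filter favours such a difference, and the count of 6 lower genes above includes this gene. On the log2 scale KO was at -6.04 ± 0.21 (adjusted p = 4.96e-12) relative to Ctrl at d4 and at -5.81 ± 0.21 (adjusted p = 1.49e-12) at d6, the largest change of any Zfp gene on both days.

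Its paralog Zfp503 (chromosome 14, 21983959 to 21989601), known from the developing striatum, limb and eye, rose later. It was at 11.4, 17.6 and 13.4 TPM in Ctrl and 12.7, 8.73 and 9.55 TPM in KO at d4, where the libraries overlapped (-0.41 ± 0.24, adjusted p = 0.145). At d6 it was at 119.8, 141 and 92.7 TPM and at 12.3, 19.6 and 17.1 TPM (-2.78 ± 0.24, adjusted p = 4.42e-08), with the groups far apart. Zfp423 (chromosome 8, 87661810 to 87959595), a factor of 27 matched fingers that works with Smad and retinoic acid receptors in brain and fat, rose in both genotypes and less in KO. It was at 51.7, 56.0 and 66.7 TPM and 13.9, 15.9 and 17.2 TPM at d4 (-1.82 ± 0.15, adjusted p = 7.22e-08) and at 29.6, 29.6 and 28.6 TPM and 12.3, 11.1 and 10.3 TPM at d6 (-1.31 ± 0.15, adjusted p = 1.47e-06).

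Zfp608 behaved otherwise until d4. It rose from 0.274, 0.233 and 0.104 to 24.5, 28.6 and 29.6 TPM in Ctrl and from 0.390, 0.156 and 0.460 to 21.8, 30.4 and 26.8 TPM in KO, with overlapping libraries at d4 (-0.07 ± 0.13, adjusted p = 0.664). At d6 it had risen further to 62.8, 71.0 and 71.5 TPM in Ctrl and was at 37.6, 31.9 and 31.1 TPM in KO (-1.01 ± 0.13, adjusted p = 6.79e-06). Its relative Zfp609, which works with the cohesin loader Nipbl in cortical progenitors, was the listed gene without a call at d6 (-0.23 ± 0.09, adjusted p = 0.0424). Zfp191, a factor of myelination, was at 48.8 ± 1.34 and 28.7 ± 0.730 TPM at d6 (-0.75 ± 0.06, adjusted p = 1.45e-08). Zfp335, a factor that neural progenitors need to divide, was lower at d6 (-0.49 ± 0.10, adjusted p = 4.04e-04), a call lost after quantile normalization and when only the groups compared were fitted. The neural, endoderm and mesoderm markers were lower with this group at d6, as given above, and their part in these differences was not tested.

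**Figure D4:**
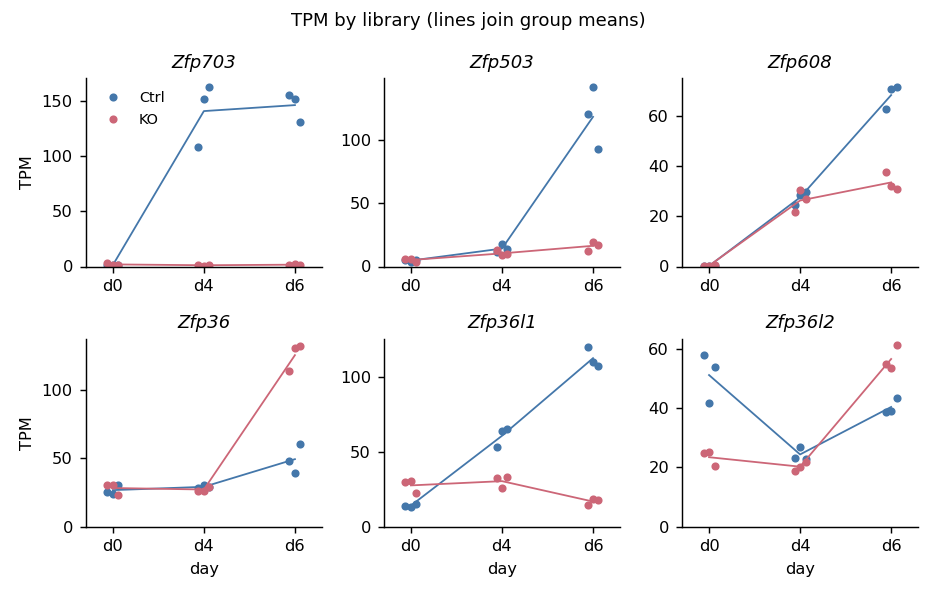
TPM (y axis, linear from 0) of Zfp703, Zfp503, Zfp608, Zfp36, Zfp36l1 and Zfp36l2 by day (x axis), 1 point per library, blue for Ctrl and red for KO, with lines through the means of 3 libraries. Zfp703 reaches 109 to 162 TPM in Ctrl at d4 and stays below 3 TPM in KO, and Zfp36 and Zfp36l1 part in opposite directions at d6.

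The 4 genes of CCCH mRNA decay split, with 2 higher and 2 lower in KO at d6, against 17.9% and 34.3% of all genes. Zfp36 (chromosome 7, 28376784 to 28380253), the immediate early gene of the family, was not called until d4 and was higher in KO at d6. It was at 28.2, 30.2 and 29.2 TPM in Ctrl and 26.1, 26.5 and 29.1 TPM in KO at d4, and at 48.4, 39.7 and 60.3 and 114, 131 and 132 TPM at d6. Only at d6 did the groups lie apart (1.34 ± 0.13, adjusted p = 3.15e-07, and -0.10 ± 0.13, adjusted p = 0.551 for d4, on the log2 scale). Zfp36l2 was lower in KO at d0, at 57.9, 41.7 and 53.8 against 24.7, 25.1 and 20.5 TPM (-1.08 ± 0.11, adjusted p = 2.83e-06), and higher at d6, at 38.8, 39.2 and 43.3 against 55.0, 53.5 and 61.3 TPM (0.47 ± 0.11, adjusted p = 0.00179). The d6 call of Zfp36l2 was lost without KO d6 replicate 3, at an adjusted p of 0.0106.

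Zfp36l1 (chromosome 12, 80107754 to 80113013) went the other way. In Ctrl it was at 14.1, 13.4 and 15.1 TPM at d0, 53.1, 63.9 and 65.6 TPM at d4 and 120.4, 110.4 and 108 TPM at d6. In KO it was at 30.3, 30.5 and 22.3, 32.5, 25.9 and 33.2 and 14.7, 18.3 and 17.6 TPM. KO was above Ctrl at d0 (0.91 ± 0.13, adjusted p = 4.13e-05), below it at d4 (-0.97 ± 0.13, adjusted p = 1.00e-05) and further below at d6 (-2.67 ± 0.13, adjusted p = 4.63e-11), without overlap on any day. The gene lies on chromosome 12, where 47.2% of the other genes were also higher at d0, and the part of the chromosome was not tested. Zfp36l3, an X-linked gene known from the placenta of rodents, was at 15.7 ± 2.19 TPM in Ctrl and 6.28 ± 1.14 TPM in KO at d6 (-1.20 ± 0.17, adjusted p = 1.13e-05).

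Other large falls were those of Zfp618, Zfp362, Zfp811, Zfp629, Zfp9 and Zfp560. Zfp618 (chromosome 4, 62965573 to 63139708), which binds the methyl-DNA reader Uhrf2, was at 15.4, 17.2 and 21.5 TPM in Ctrl and 3.42, 3.30 and 2.85 TPM in KO at d4 (-2.17 ± 0.15, adjusted p = 6.61e-09), and at 24.0, 24.5 and 25.02 and 5.01, 5.26 and 5.16 TPM at d6 (-2.05 ± 0.15, adjusted p = 5.19e-09). Zfp362, with 7 matched fingers, was at 67.4, 74.2 and 67.6 TPM and 13.1, 19.1 and 14.9 TPM at d6 (-2.10 ± 0.13, adjusted p = 1.12e-09). In both genes the Ctrl libraries of these days lay above all KO libraries. The KRAB gene Zfp811 rose from d4 to d6 in Ctrl (1.48) and was not called to change in KO (-0.01), at 14.0, 15.2 and 15.3 and 3.65, 2.73 and 2.25 TPM at d6 (-2.05 ± 0.15, adjusted p = 7.87e-09). The KRAB gene Zfp9 was at 7.01, 6.18 and 6.36 TPM in Ctrl at d6 and near its d0 level in KO, at 1.11, 1.08 and 0.453 TPM (-2.02 ± 0.16, adjusted p = 1.99e-08). Zfp811 and Zfp9 passed the authors' filter of at least 5 TPM in 3 samples only through Ctrl libraries, and that filter favours such differences. Zfp629 rose in both genotypes to d4 and only in Ctrl was called higher again at d6, at 37.5 ± 0.854 TPM against 10.5 ± 0.696 TPM in KO (-1.75 ± 0.13, adjusted p = 6.45e-09). The KRAB gene Zfp560 had its largest difference at d4, at 19.5 ± 3.603 and 6.11 ± 0.141 TPM (-1.52 ± 0.15, adjusted p = 6.49e-07), and one of -0.82 ± 0.15 at d6.

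The genes higher in KO were fewer than those lower. A KRAB box is carried by 6 of the 11 at d4 and 17 of the 25 at d6, and by 86 of all 192. In d6 cells Zfp459 (chromosome 13, 67405709 to 67421418) stood at 1.56, 2.32 and 2.80 TPM in Ctrl and 16.4, 8.97 and 6.32 TPM in KO (1.76 ± 0.25, adjusted p = 1.47e-05), and Zfp493 at 4.58, 4.67 and 5.15 and 14.1, 12.6 and 8.54 TPM (1.11 ± 0.14, adjusted p = 3.72e-06). Zfp534 was at 9.51, 10.0 and 13.1 and 36.6, 21.1 and 18.0 TPM (1.09 ± 0.20, adjusted p = 1.44e-04), while at d4 its libraries overlapped (0.13 ± 0.20, adjusted p = 0.590). These 3 genes fell between d4 and d6 in Ctrl, and in each the KO libraries at d6 lay above all Ctrl libraries and spread widely, with replicate 1 the highest. Zfp819 (chromosome 7, 43607169 to 43618285), a KRAB gene of pluripotent cells tied to the silencing of retroelements, fell in both genotypes from a higher level in KO. It was at 19.4, 17.0 and 16.7 TPM in Ctrl and 25.3, 28.9 and 30.9 TPM in KO at d0, at 6.44, 4.72 and 4.86 and 13.2, 14.9 and 17.3 TPM at d4 (1.35 ± 0.18, adjusted p = 1.03e-05), and at 1.23, 1.87 and 1.56 and 5.62, 3.80 and 2.84 TPM at d6 (0.97 ± 0.18, adjusted p = 1.79e-04). The d0 call of Zfp819 was lost in 13 of 27 other settings, and the d6 call when only the groups compared were fitted. Zfp770, a C2H2 gene without KRAB, was at 29.5 ± 1.20 and 44.1 ± 2.03 TPM at d4 (0.57 ± 0.11, adjusted p = 3.61e-04), and Zfp729b at 14.9 ± 1.20 and 21.9 ± 3.30 TPM (0.52 ± 0.12, adjusted p = 0.00141), the latter call lost without KO d4 replicate 1. At d4, 1 pluripotency marker was higher and 1 lower, with sums of 1261 to 1674 TPM in Ctrl and 2028 to 2133 TPM in KO, and at d6 3 were higher, as given above, and their part in these differences was not tested.

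Of the 5 KRAB genes listed for imprints and retroelements that the table holds (of 8 listed), 2 were higher and 1 lower in KO at d6, against 17.9% and 34.3% of all genes. Zfp57 and Zfp445 keep methylation at imprinted regions. Zfp57 fell from d0 to d4 in both genotypes, from 237 ± 32.3 to 114 ± 7.53 TPM in Ctrl and from 251 ± 35.96 to 111 ± 8.56 TPM in KO. Its d6 libraries were at 48.6, 48.4 and 50.6 TPM in Ctrl and 104, 86.7 and 56.3 TPM in KO (0.69 ± 0.16, adjusted p = 0.00173), a call lost without KO d6 replicate 1 or when only the groups compared were fitted, at an adjusted p of up to 0.0208. Zfp445 was at 129 ± 10.6 and 106 ± 15.3 TPM (-0.28 ± 0.09, adjusted p = 0.0116) and was not called. Zfp568, which silences a placental promoter of Igf2, was at 76.7 ± 8.29 and 61.6 ± 1.37 TPM (-0.31 ± 0.06, adjusted p = 4.99e-04), a call lost after median-ratio rescaling and when only the groups compared were fitted. Of 8 genes of the KRAB corepressor complex in the table, which are no members of the family, 1 was higher (12.5%) and 3 lower (37.5%) at d6, near the shares of all genes. Trim28 itself was at 621 ± 28.6 and 612 ± 20.3 TPM (-0.02 ± 0.06, adjusted p = 0.779), and the maintenance methylase Dnmt1 at 408 ± 17.8 and 255 ± 5.89 TPM (-0.67 ± 0.05, adjusted p = 2.04e-08).

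Of 8 listed regulators of ES cells, 7 were in the table, with 1 higher and 1 lower in KO at d6 (14.3% each, against 17.9% and 34.3% of all genes). Zfp281, a partner of Nanog and of the NuRD complex, was at 44.6, 48.3 and 51.4 TPM in Ctrl and 76.5, 74.4 and 67.0 TPM in KO at d6 (0.58 ± 0.06, adjusted p = 5.57e-07), without overlap. Zfp462, a factor of heterochromatin, was at 54.1 ± 4.36 and 42.2 ± 5.03 TPM (-0.36 ± 0.09, adjusted p = 0.00244), a call lost in 6 of 27 other settings: either rescaling, only the groups compared, and without Ctrl d6 replicate 3, KO d6 replicate 2 or KO d6 replicate 3. Zfp296 differed by 0.49 ± 0.19 at d6 and was not called (adjusted p = 0.0385), and Zfp143, Zfp217, Zfp322a and Zfp207 were not called at d6 either.

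Of the 6 genes of chromatin complexes in the table, 3 were lower at d6 (50.0%, near the 51.6% of the Zfp genes) and none higher. Zfp518b, which binds the methylase G9a, was at 26.5, 27.6 and 29.6 and 15.9, 12.5 and 14.7 TPM (-0.92 ± 0.09, adjusted p = 2.12e-07), without overlap. Zfp592, of the complex of Zmynd8, was at 35.9 ± 1.02 and 20.1 ± 1.91 TPM at d4 (-0.81 ± 0.09, adjusted p = 1.19e-06) and differed by -0.48 ± 0.09 (adjusted p = 1.47e-04) at d6. Its partner Zfp687 differed by -0.25 ± 0.07 (adjusted p = 0.00805) at d6, a call lost in 16 of 27 other settings. Of the 7 genes of RNA and ribosome in the table, 1 was higher (14.3%) and 3 lower (42.9%) at d6, against 17.9% and 34.3% of all genes. Zfp385a, which binds mRNA, was at 171, 186 and 169.8 and 73.3, 99.2 and 88.3 TPM (-1.02 ± 0.13, adjusted p = 3.51e-06). Zfp326, of the DBIRD complex of splicing, was at 23.5 ± 1.69 and 15.1 ± 1.43 TPM (-0.61 ± 0.11, adjusted p = 2.09e-04). Zfp622, a factor of ribosome assembly, was higher at d6 (0.26 ± 0.08, adjusted p = 0.00634), a call lost in 6 of 27 other settings. Among the 3 genes of highest level, Zfp598 differed by 0.09 ± 0.11 and Zfp207 by -0.12 ± 0.06 at d6, neither called. Zfp219 was lower (-0.49 ± 0.12, adjusted p = 0.00185), a call lost after median-ratio rescaling and without Ctrl d6 replicate 2.

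Many Zfp genes lie in runs along the chromosomes, and 19 runs were found of at least 3 members with at most 1 Mb from each to the next. On chromosome 13 (67038596 to 67792512, GRCm38), the 6 KRAB genes Zfp712, Zfp459, Zfp874b, Zfp729b, Zfp65 and Zfp493 comprised 3 genes higher in KO at d4 and 4 at d6, and none lower, against 12.7% and 17.9% of all genes higher. This run and the others described were picked after their values were seen, and 12 of the 19 runs held no gene higher at d6. The 2 other genes of the table in its span were not called. Their log2 fold changes at d6 were 1.76 ± 0.25 for Zfp459, 1.11 ± 0.14 for Zfp493, 0.70 ± 0.14 for Zfp874b and 0.62 ± 0.12 for Zfp729b, with 0.26 ± 0.12 (adjusted p = 0.0665) for Zfp65 and -0.68 ± 0.23 (adjusted p = 0.0168) for Zfp712, which were not called. Reads of 36 bases may fall on more than 1 copy of such related genes, in which case their values would be uncertain and not independent. This was not measured. On chromosome 7 (4915217 to 5053723), all 5 genes of a run without KRAB were lower at d6 and 4 of them at d4, against 34.3% and 32.7% of all genes. Zfp580 was at 76.5, 86.5 and 50.9 TPM in Ctrl and 27.8, 34.3 and 25.6 TPM in KO (-1.23 ± 0.26, adjusted p = 6.95e-04), and Zfp865 was at 30.5, 38.9 and 29.8 and 12.5, 19.5 and 16.2 TPM (-1.004 ± 0.15, adjusted p = 2.40e-05). Zfp628, Zfp579 and Zfp784 had -0.97 ± 0.16, -1.49 ± 0.22 and -1.33 ± 0.27. Depth was low for Zfp784, with 9 to 22 reads per KO library and 37 to 60 per Ctrl library at d6. The 1 other gene of the table in this span was not called on any day. In a run of 3 KRAB genes on chromosome 7 (42473386 to 43618285), Zfp141 and Zfp819 were higher at d4 and d6, and Zfp936 was not called (0.36 ± 0.17, adjusted p = 0.0669).

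**Figure D5:**
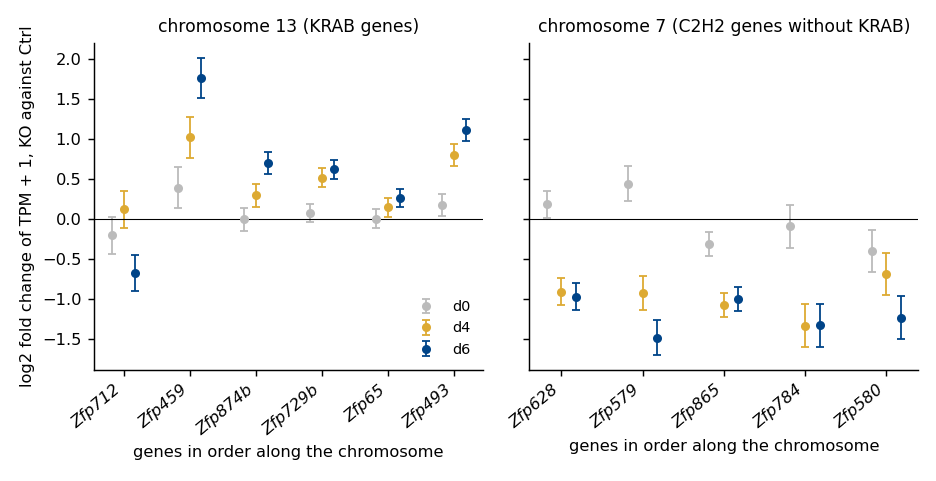
Log2 fold change of TPM + 1 in KO against Ctrl (y axis) of neighbouring genes in their order along the chromosome (x axis), 6 KRAB genes of chromosome 13 on the left and 5 C2H2 genes without KRAB of chromosome 7 on the right, in grey at d0, yellow at d4 and blue at d6, with bars of 1 SE. Zfp459, Zfp874b, Zfp729b and Zfp493 lie above 0 at d6, and all 5 genes of chromosome 7 lie below -0.9 at d6.

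The Zfp promoters were searched for the letters that Zeb2 binds, CACCT, and for the longer CACCTG, on both strands, from 250 bases before to 50 after the first listed start in RefSeq (GRCm38.p6). The longer motif contains the shorter. The study looked for pairs of such motifs over a longer stretch on both sides of the start, so these counts cannot be set against its result. Its methods also allow TACCTG, which was not searched for. Of the 192 genes, 151 matched by symbol. CACCTG was in 20 of them (13.2%), against 5413 of the 27025 promoters of all genes, and CACCT in 72 (47.7%), against 51.7%. The genes higher in KO at d6 held CACCT in 10 of 20 promoters (50.0%) and CACCTG in none, and those lower in 30 (39.0%) and 12 (15.6%) of 77. The members not called at d6 held CACCT in 32 of 54 (59.3%). Of the 5 genes most increased and the 4 most decreased at d6 with a promoter in the table and no overlap between genotypes, 6 held no CACCT in the 250 bases before the start (Zfp459, Zfp534, Zfp365, Zfp503, Zfp36l1 and Zfp618), Zfp36 and Zfp811 held 1 and Zfp819 held 2. These bases are shown for the gene among these 9 of the largest change in each direction, Zfp459, which was higher in KO, and Zfp503, which was lower, and for Zfp819 as the one with most matches, with CACCT and its reverse complement AGGTG in capitals. They lie at chr13:67421419-67421668, minus strand, at chr14:21989602-21989851, minus strand and at chr7:43606919-43607168, plus strand. The bases of Zfp459 hold TACCTG and those of Zfp503 its reverse complement CAGGTA, which are not in capitals.
Zfp459: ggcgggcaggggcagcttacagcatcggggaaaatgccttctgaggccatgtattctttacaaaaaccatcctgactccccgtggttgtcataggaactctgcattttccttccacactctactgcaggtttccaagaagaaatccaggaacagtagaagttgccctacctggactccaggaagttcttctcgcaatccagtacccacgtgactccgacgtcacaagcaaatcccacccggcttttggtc
Zfp503: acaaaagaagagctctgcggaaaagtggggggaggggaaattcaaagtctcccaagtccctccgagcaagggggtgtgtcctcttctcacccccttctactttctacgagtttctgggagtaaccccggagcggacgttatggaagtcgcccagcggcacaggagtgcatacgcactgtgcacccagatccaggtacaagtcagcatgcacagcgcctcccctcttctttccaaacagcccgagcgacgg
Zfp819: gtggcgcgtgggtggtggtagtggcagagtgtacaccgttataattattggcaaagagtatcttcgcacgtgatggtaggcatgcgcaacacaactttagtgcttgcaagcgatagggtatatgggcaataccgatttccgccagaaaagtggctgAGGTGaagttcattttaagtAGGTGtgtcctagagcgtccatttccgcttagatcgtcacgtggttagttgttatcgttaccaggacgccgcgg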

How the data were processed

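Total RNA of 18 libraries was sequenced by the authors as single reads of 36 bp, mapped with TopHat2 2.0.13 to GRCm38 and counted per gene with featureCounts 1.4.6. The authors deposited TPM values, after removing short noncoding genes, genes without at least 5 TPM in 3 samples and the least variable 20% of genes. A gene low in some groups can thus be present only through the groups where it is high, such as Zfp703, Zfp811 and Zfp9 through Ctrl. Its difference between groups is then partly set by the filter. The authors also deposited 3 score columns per gene (a variance, a standard deviation and a variability), which were not used, and made their own tests with DESeq2. Members were the protein-coding rows whose symbol is Zfp and a number, without Zfp42 and Zfp521, which the rule leaves out. Of 11046 entries, 81 repeats were left out.

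The test was limma 3.58.1 under R 4.3.3 (contrasts of 6 group means, eBayes with trend) applied to log2(TPM + 1). A gene was called where its p, adjusted by Benjamini and Hochberg over the 10965 genes, was below 0.01. A fold change on this scale understates the change of low genes. Errors of fold changes are SE and others SD (n = 3). The replicates are separate samples, and p-values set a difference against the spread between them, pooled over the 6 groups. The wider spread of the KO libraries at d6 is thus averaged with that of the other groups. Reads could be recovered from TPM for all 10965 genes (tolerance of 0.0001 read) for depth and for a voom fit. The TPM fit counts with 1 read added to each, which was taken off. On simulated data, 192 of 200 genes with a log2 change of 1.5 at d4 were recovered among 10965, with 6 false calls. The simulation gave all groups the same spread and no general shift, unlike these data, and most changes called here were smaller. Its rates can thus not be taken as those of the calls reported.

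Named genes are, by day and direction, the 6 members with the largest called changes without overlap between genotypes, the 3 largest between days, the 3 of highest mean TPM, and examples from lists by role. The genes of the runs and those singled out in the text beyond this rule were chosen after their values were seen. Members and lists were chosen with earlier results of these data known. Proteins were translated from the longest coding sequence of GENCODE M21. C2H2 fingers were matched by cysteine and histidine spacing and KRAB boxes by a consensus. Python 3.11.15 with pandas 2.3.3 and matplotlib 3.10.9 was used.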

Additional observations from a re-analysis of the deposited data

Results flagged for a closer look

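The difference between KO and Ctrl changed since d0 for 21 of the 27 genes named for a difference on some day, by a moderated F test of both later days against d0 (limma, adjusted p below 0.01 over all genes). The same test called 48.7% of all genes and 51.0% of the Zfp genes, and the 27 were chosen for their differences on single days, so that their count is a description. The values that follow are the log2 change of that difference from d0 to d6. It fell most for Zfp703 (-6.14), Zfp36l1 (-3.58), Zfp503 (-2.87), Zfp352 (-2.46), Zfp9 (-2.15) and Zfp811 (-2.06). It also fell for Zfp362 (-1.76), Zfp618 (-1.51), Zfp386 (-1.50), Zfp868 (-1.36), Zfp560 (-1.13), Zfp869 (-1.01), Zfp423 (-1.002) and Zfp1 (-0.71). It rose for Zfp365 (2.12), Zfp36l2 (1.56), Zfp36 (1.27), Zfp493 (0.94), Zfp566 (0.77) and Zfp185 (0.72). For Zfp334 it was -0.16 at d6, and the change to d4 was 0.42. Zfp36l1, Zfp386, Zfp868, Zfp869, Zfp1, Zfp703 and Zfp423 lie on chromosomes 8 and 12, where 48.7% and 47.2% of the other genes were higher at d0, and the part of the chromosome in these changes was not tested.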

How the results depend on the processing

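The counts of Zfp genes called were recomputed under other scalings, pseudocounts, filters, fits and without each library, and the causes of the shifts below were not tested. The shares of all genes called were computed for the main fit only. Median-ratio rescaling gave 17 higher and 47 lower genes in KO at d4 and 40 lower genes at d4 than d0 in Ctrl. Quantile normalization gave 11 lower at d0, 18 higher and 43 lower at d4, 40 higher at d6, 80 higher and 37 lower at d4 than d0 in Ctrl, and 8 higher at d6 than d4 in KO. Voom on the recovered reads gave 31 lower at d4 than d0 and 44 higher at d6 than d4 in Ctrl. Fitting only the groups compared gave 9 lower at d0, and 7 higher and 36 lower at d6 than d4 in KO. A mean TPM of at least 10, which leaves fewer genes, gave 9 higher at d6 than d4 in KO. With an unadjusted p below 0.01 and a log2 fold change above 1 in size, 1 higher and 2 lower genes were called at d0, 3 and 16 at d4, and 4 and 30 at d6. Between days this rule gave 59 higher and 6 lower (Ctrl d0 to d4), 6 and 12 (Ctrl d4 to d6), 25 and 6 (KO d0 to d4) and 3 and 3 (KO d4 to d6). Leaving out 1 library gave 13 to 22 higher and 8 to 20 lower genes at d0, and 9 to 13 higher at d6 than d4 in KO. The lowest d0 counts came without KO d0 replicate 1 (13 higher) and without Ctrl d0 replicate 3 or KO d0 replicate 3 (8 and 9 lower), and 9 were higher at d6 than d4 without KO d4 replicate 1 or KO d6 replicate 2.

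The replicate numbers were not treated as pairing the samples, since the labels give no shared source and not every same-numbered pair of Ctrl and KO libraries deviated together: the correlation of deviations was 0.15 to 0.23 for replicates 1 and 2 and -0.08 to 0.05 for replicate 3. With the replicate number as a block, 78 Zfp genes were lower at d4 and 99 at d6, and 85 had a different course.

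Of 11466 recomputed values of single genes, 11059 kept direction and side of the threshold, 281 lost a call, 119 gained one and 7 turned. After median-ratio rescaling the change from d0 to d4 in Ctrl was -0.26 for Zfp143, -0.085 for Zfp207 and -0.27 for Zfp568. After quantile normalization it was -0.15 for Zfp493 and -0.12 for Zfp811, and in KO -0.50 for Zfp811 and -0.51 for Zfp9. Depth limits the 21 genes with under 100 reads.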
